A study of Homo sapiens with 26 samples.

Results

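LRP1, LRP8 and LRP10, 3 receptors of the LDL receptor family, were followed in Huh7 cells, an established human liver cancer line. The members were the transcripts whose GENCODE symbol is one of these names, and all 3 were found among the 12325 transcripts counted. Each transcript was represented by 1 isoform, so other isoforms were not measured. PF-06446846 is a small molecule that binds the human ribosome and interferes with the elongation of selected nascent chains. In a first study, cells were kept for 10 min or 60 min with PF-06446846 at 1.5 μM or at 0.3 μM, or with DMSO alone at 0.5% (vehicle), with 3 biological replicates in each of these groups. In a second study, cells received 1.5 μM PF-06446846 or the same vehicle for 60 min, with 2 replicates, and each sample gave a ribo-seq and an mRNA-seq library. Ribo-seq reads out the stretches of mRNA protected by ribosomes (footprints), and the deposited values are raw numbers of reads at each codon of a coding sequence (CDS).

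Receptors of this family are single-pass membrane proteins that bind extracellular ligands through cysteine-rich repeats and carry them into the cell. LRP1 is a very large scavenging and signaling receptor of hepatocytes that clears lipoprotein remnants and protease–inhibitor complexes and is cut by furin into a ligand-binding and a membrane-anchored chain. LRP8, also called apoE receptor 2, is best known as a receptor for reelin in neurons, where it passes the signal on through the adaptor DAB1. LRP10 is a smaller, more distant relative that moves between the Golgi, endosomes and the cell surface. All of them enter the secretory pathway through an N-terminal signal peptide, which is the first stretch of each protein to leave the ribosome.

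The first 50 codons of each CDS are shown because the largest difference between treated and vehicle cells lay in this stretch of LRP8. Capitals mark codons 15 to 38, which held nearly all of the footprints counted in this stretch of LRP8 with the compound, and the same codons in the other receptors. The sequences were read from the GRCh38 genome on the coding strand with the GENCODE annotation, and each window runs across at least 1 exon junction, so that the coordinates include introns.
LRP8 (exons 1 to 2, minus strand, chr1:53326967-53327912): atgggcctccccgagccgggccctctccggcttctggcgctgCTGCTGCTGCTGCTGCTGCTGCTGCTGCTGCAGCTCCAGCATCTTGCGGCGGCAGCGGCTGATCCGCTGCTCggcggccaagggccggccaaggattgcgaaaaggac
LRP1 (exons 1 to 2, plus strand, chr12:57128965-57138541): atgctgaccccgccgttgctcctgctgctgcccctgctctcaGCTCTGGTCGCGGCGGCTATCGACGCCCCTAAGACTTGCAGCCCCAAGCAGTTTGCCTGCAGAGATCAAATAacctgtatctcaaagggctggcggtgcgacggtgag
LRP10 (exons 1 to 3, plus strand, chr14:22872304-22873381): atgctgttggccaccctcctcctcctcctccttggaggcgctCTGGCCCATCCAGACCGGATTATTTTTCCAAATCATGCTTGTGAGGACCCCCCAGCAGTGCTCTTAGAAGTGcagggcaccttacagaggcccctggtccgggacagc
LRP8 carries an unbroken run of 11 CTG codons at codons 14 to 24. The longest such run was 4 codons in LRP1 and 2 in LRP10, and LRP8 was the only 1 of 10225 transcripts with a usable sequence whose run reached 11 codons. The first 50 codons of LRP8 were 70.0% G and C, against 61.3% in LRP1, 59.3% in LRP10 and a median of 57.3% over the same 10225 transcripts, of which 16.01% were at or above LRP8.

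The 3 coding sequences differ greatly in length, with 4545 codons in LRP1 (chr12:57128965-57212555, 89 exons), 964 in LRP8 (chr1:53247018-53327912, 19 exons) and 557 in LRP10 (chr14:22872304-22879201, 8 exons), stop codon included. The depth over all transcripts was 6414227 to 22224137 reads per ribo-seq library in the first study, 8888459 to 13736874 in the second, and 15227654 to 22036358 per mRNA-seq library. Across the 22 ribo-seq libraries LRP1 had 1925 to 12154 reads, LRP10 169 to 765 and LRP8 only 74 to 412, so LRP8 values are the least precise. Of 8 hepatocyte markers, 7 were among the transcripts and were detected, with a summed level of 16370 to 22969 reads per 1000000 reads in the library (CPM) in the ribo-seq libraries of the first study. Of 7 markers of other cells, 2 were among the transcripts, 1 of which had no reads in any library, and their sum was 11.5 to 28.04 CPM there. None of 22 replicate pairs agreed within sampling noise (chi-square per degree of freedom 4.62 to 55.2).

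Per length, LRP1 and LRP10 had similar footprint densities and LRP8 a much lower density in vehicle cells. After 60 min of vehicle the mean RPKM (CPM divided by the CDS length in kilobases) was 30.8 ± 13.9 for LRP1 (SD, n = 3) and 23.7 ± 6.87 for LRP10, which overlapped between libraries. Without normalization factors, 66.6% of the 12325 transcripts lay below LRP1 in these libraries, 60.9% below LRP10 and 28.3% below LRP8. In mRNA-seq of vehicle cells LRP10 was the most abundant of the 3 per length, at 64.3 and 72.9 RPKM, followed by LRP1 at 38.13 and 38.04 and LRP8 at 6.99 and 9.06. Translational efficiency (TE), the ratio of footprint to mRNA density, was 0.658 and 0.666 for LRP1 in the 2 vehicle samples, 0.618 and 0.441 for LRP8, and 0.390 and 0.331 for LRP10. LRP1 thus had the highest TE and LRP10 the lowest in both vehicle samples.

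**Figure D1:**
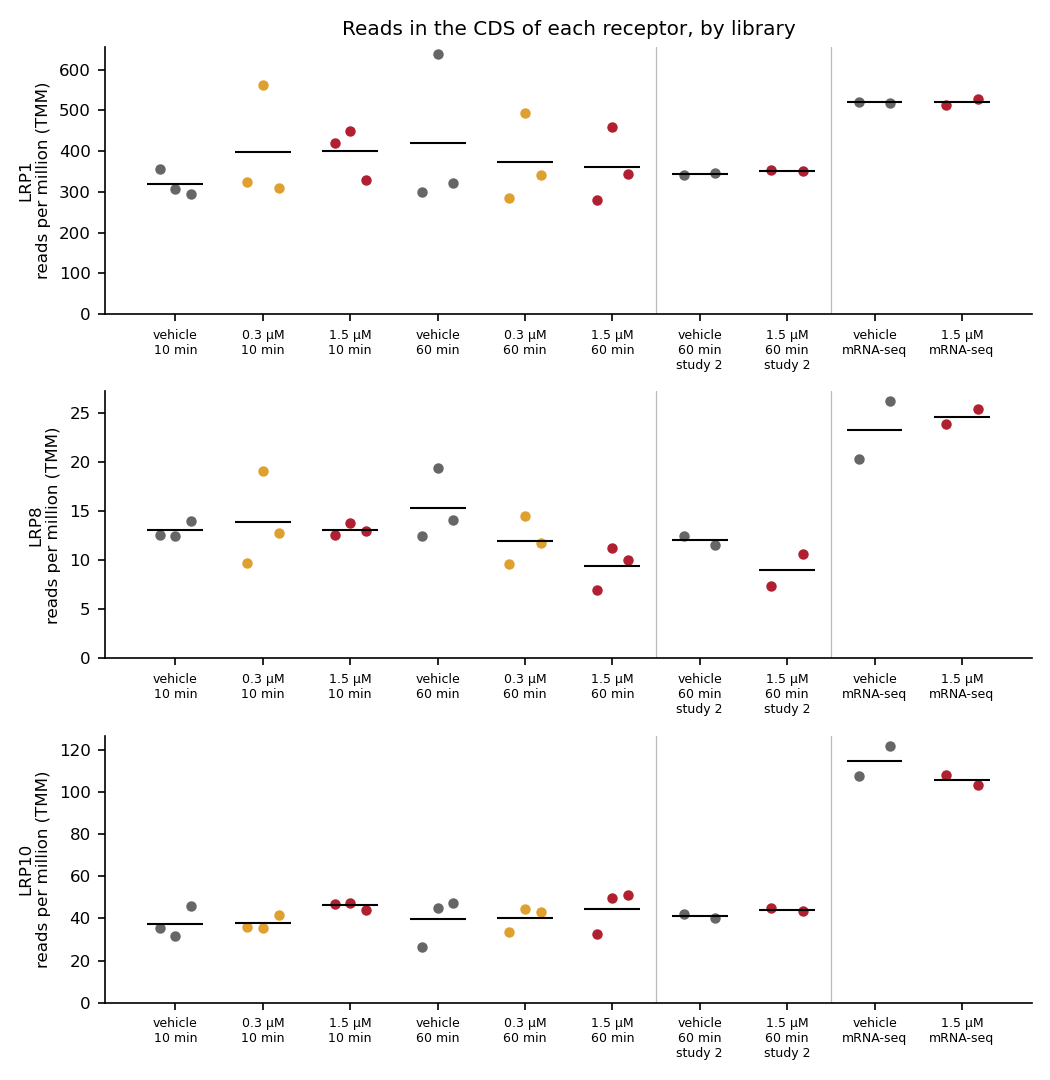
Reads in the CDS of each receptor in the 26 libraries (points, in CPM with TMM normalization) with group means (black lines), by group on the horizontal axis. LRP8 after 60 min was lower in the 1.5 μM libraries (6.99 to 11.2) than in the vehicle libraries (11.6 to 19.4) in both studies, while LRP1 varied mostly between replicates.

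The share of LRP8 footprints in the first 50 codons was higher with 1.5 μM PF-06446846 than with vehicle in every comparison made, that is at 10 min, at 60 min and in the second study. After 10 min, 41.4%, 23.1% and 9.68% of LRP8 footprints lay there in the 1.5 μM libraries, against 3.95%, 3.61% and 7.44% in the vehicle libraries. The treated libraries thus did not overlap with vehicle but were spread widely, from near the highest vehicle library to 36 of 87 footprints in replicate 1, without which the difference between the means was 11.4 percentage points. The means were 24.7 ± 15.9% and 5.00 ± 2.12% (SD, n = 3 each, two-sided exact permutation test p = 0.1, the smallest value that 3 against 3 libraries can give). The 95% Wilson intervals of the lowest treated library (5.62% to 16.2%) and the highest vehicle library (3.96% to 13.5%) overlapped, where intervals cover counting error only.

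After 60 min the shares were 10.1%, 13.5% and 14.8% with 1.5 μM and 2.50%, 5.23% and 2.92% with vehicle. The treated replicates were close to each other and all above vehicle, with means of 12.8 ± 2.42% and 3.55 ± 1.47% (SD, n = 3 each, exact permutation p = 0.1). The shares in the second study were 18.9% and 14.7% with 1.5 μM and 6.40% and 2.94% with vehicle, again without overlap (means 16.8 ± 2.97% and 4.67 ± 2.44%, n = 2 each, exact permutation p = 0.333, the smallest value possible for 2 against 2). No overlap in this direction was common over all transcripts, at 24% of 8443 transcripts at 10 min (those reaching 50 reads per library), 5.68% of 8031 at 60 min and 19.2% of 8998 in the second study. LRP8 was without overlap in all 3 comparisons, as were 1.36% of 7963 transcripts. The size of the difference was less common, and a difference at least as large as that of LRP8 (19.7, 9.27 and 12.1 percentage points) was seen in 34, 69 and 38 of these transcripts, against median differences of 1.07, −0.0015 and 0.16 points. These transcripts were not matched for depth. LRP8, with as few as 74 footprints in a library, lies near the limit of 50 reads, where counting error is large.

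In the matched mRNA-seq libraries the share of LRP8 reads in the first 50 codons was 15.5% and 9.90% with 1.5 μM and 9.22% and 16.2% with vehicle. These overlapped, and the group means were 12.7% for both, where 15.7% of transcripts were higher without overlap. At 0.3 μM the footprint shares were 7.69%, 0.971% and 8.0% after 10 min and 1.48%, 4.76% and 5.56% after 60 min, which overlapped with the vehicle libraries at both times, where 4.2% and 4.16% of transcripts were higher without overlap (means 5.55 ± 3.97% and 3.93 ± 2.16%, n = 3 each). Both doses were compared with the same vehicle libraries.

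**Figure D2:**
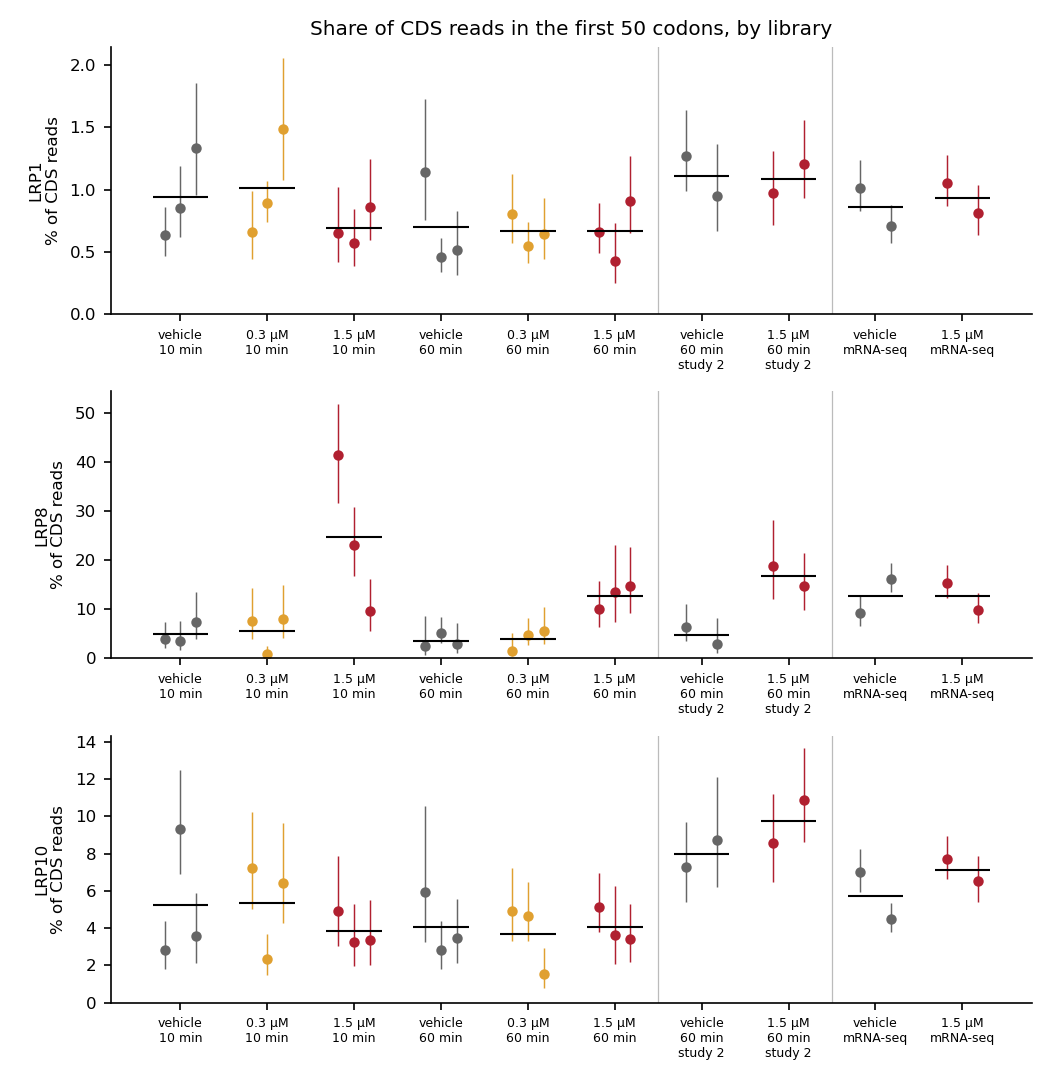
Share of CDS reads in the first 50 codons of each receptor in each library (points, percent, bars are 95% Wilson intervals) with group means (black lines). Only in the LRP8 panel do the 1.5 μM ribo-seq libraries (9.68% to 41.4%) lie above the vehicle libraries of the same comparison each time, while the mRNA-seq libraries overlap.

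LRP1 and LRP10 showed no such separation. In LRP1 the share was below 2% in every library, with means of 0.69 ± 0.15% and 0.94 ± 0.36% (1.5 μM and vehicle) after 10 min, 0.67 ± 0.24% and 0.70 ± 0.38% after 60 min, and 1.09 ± 0.17% and 1.11 ± 0.23% in the second study. In LRP10 it was 3.83 ± 0.94% and 5.22 ± 3.56%, 4.07 ± 0.93% and 4.08 ± 1.62%, and 9.73 ± 1.66% and 7.99 ± 1.01% in the same order. The libraries of both receptors overlapped between treatment and vehicle in all 3 comparisons. At 10 min the median share over all transcripts was also slightly higher with 1.5 μM (7.35% to 8.11% per library) than with vehicle (6.15% to 7.003%), and its part in the LRP8 result was not tested.

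Nearly all LRP8 footprints in the first 50 codons with 1.5 μM lay on the capital codons of the LRP8 sequence above, as did those with 0.3 μM. These codons were chosen from the same footprints, so the counts below, pooled over libraries, describe where footprints lay and test nothing. Over the 8 ribo-seq libraries of 1.5 μM, 159 of 918 LRP8 footprints were in the first 50 codons, of which 157 lay in codons 15 to 38. Over the 6 libraries of 0.3 μM it was 40 of 41. Over the 8 vehicle libraries 59 of 1293 footprints were in the first 50 codons, 44 of them in codons 15 to 38. In mRNA-seq 85 of 107 reads with 1.5 μM and 92 of 127 with vehicle lay there, so most of these reads were on the same codons without the compound and in mRNA too. The leading codon with 1.5 μM differed between comparisons. At 10 min it was codon 20, with 36 of 79 footprints against 1 of 24 with vehicle, whereas this codon held 3 against 7 at 60 min and none in the second study. At 60 min it was codon 16, with 13 of 42 against 0 of 21, and this codon held 16 against 4 at 10 min and 6 against 3 in the second study. For the second study it was codon 38, with 7 of 38 against 0 of 14, and this codon held 6 and 1 at 10 and 60 min against 0 with vehicle at both times.

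Upstream of these codons no LRP8 footprint was counted in codons 1 to 14 in any of the 22 ribo-seq libraries, although 3337 LRP8 footprints were counted in all and the mRNA-seq libraries had 29 reads there. LRP1 had 218 and LRP10 68 footprints in codons 1 to 14. Of 7341 transcripts with at least as many footprints as LRP8, 85 (1.16%) had none in these codons.

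The run of CTG codons makes part of this stretch hard to align. Of windows of 28 bases placed as a footprint would be, those with the inferred P-site (the site that holds the tRNA with the growing chain) at codons 19 and 20 also matched 25 places in other transcripts and 1 more place in LRP8 itself, those at codons 17 and 18 matched 1 and 2 places elsewhere, and every other window tested in the first 50 codons matched once among 11176 transcripts. The authors had Bowtie report every equally good best alignment, kept reads with at most 5 such sites, and by their scripts added 1 count at each of them. Codon 20 nevertheless held footprints, and the part of multiple alignment in these counts was not tested. Without codons 17 to 20, an alternative chosen after the data had been seen, the LRP8 shares after 10 min were 23.9%, 12.7% and 7.44% against 3.95%, 3.61% and 5.08%. The means were 14.7 ± 8.40% and 4.22 ± 0.77% after 10 min, 9.18 ± 2.94% and 1.68 ± 0.88% after 60 min, and 15.9 ± 1.67% and 4.19 ± 3.12% in the second study (1.5 μM and vehicle), and the libraries did not overlap in any of the 3 comparisons. The share of all transcripts without overlap was not computed with these codons left out, and that for the whole share is given above.

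**Figure D3:**
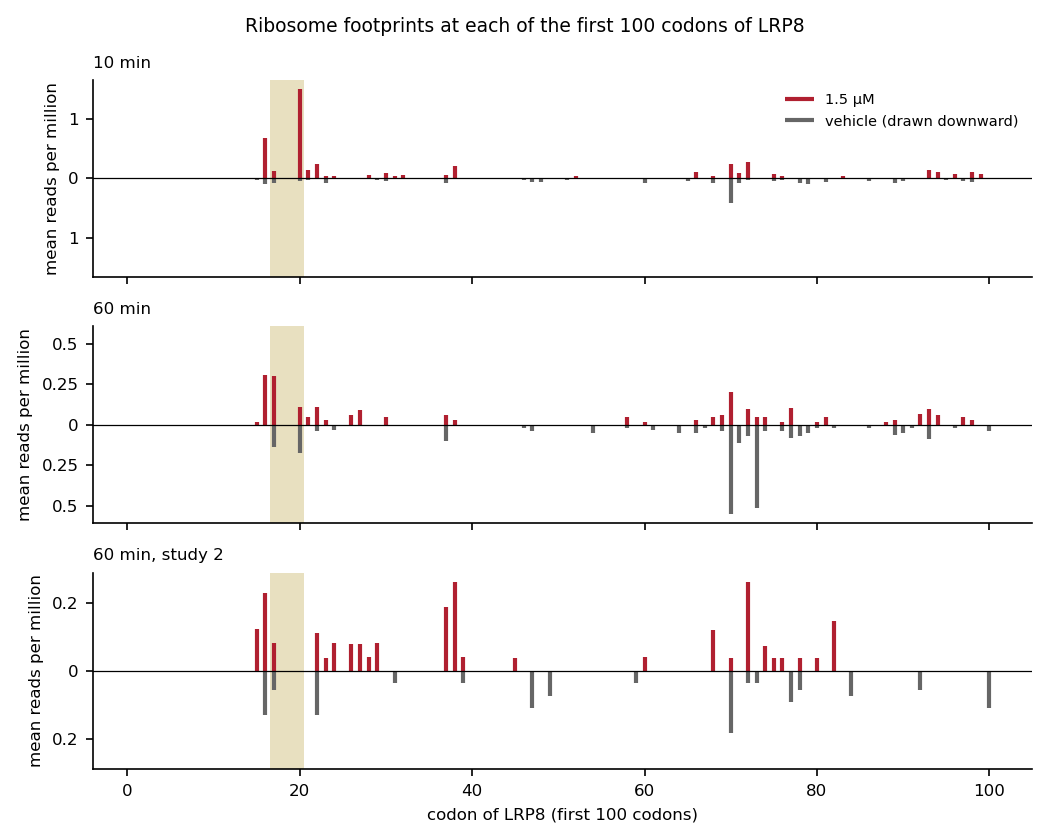
Mean footprints (CPM without TMM factors) at each of the first 100 codons of LRP8, with 1.5 μM drawn upward in red and vehicle downward in gray, in 3 comparisons. Footprints with 1.5 μM are most frequent at codons 15 to 38, and the shaded band marks codons 17 to 20, where footprints also match other places.

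Counted as reads, the first 50 codons of LRP8 rose after 10 min of 1.5 μM. The libraries held 36, 31 and 12 footprints there with 1.5 μM and 9, 6 and 9 with vehicle, or 3.23 ± 1.99 and 0.69 ± 0.32 CPM without TMM factors (SD, n = 3). A fit of first-50-codon reads over 7529 transcripts, also chosen after the data had been seen, gave a log2 fold change of 2.04 (standard error 0.48, 95% interval 1.03 to 3.05, Benjamini-Hochberg adjusted p = 0.0394 from edgeR's quasi-likelihood test), and 5.3% of the transcripts were called, 2.71% higher. This call rested on single libraries: the adjusted p was 0.208 and 0.166 without 1.5 μM replicate 1 or 2 and 0.141 and 0.133 without vehicle replicate 1 or 2, with log2 fold changes of 1.57, 2.06, 1.90 and 1.82. In the same fits of 0.3 μM against vehicle, LRP8 fell below the read filter at both times. With no filter they gave −0.14 at 10 min and −0.36 at 60 min. LRP8 thus entered the 1.5 μM fit through the treated reads that the fit tests, which limits what its call shows. With no filter, 1.5 μM against vehicle gave 2.04 with an adjusted p of 0.00234 from edgeR over 11721 transcripts. That fit was also chosen after the data had been seen, and single libraries were not left out of it.

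The same fit gave a log2 fold change of 0.84 after 60 min (standard error 0.56, adjusted p = 1.00 from edgeR) and 1.22 in the second study (0.57, 1.00), and neither passed, where 0.0956% and 0.161% of transcripts were called higher. Leaving out 1 library at a time, they were 0.59 to 1.66 (highest without vehicle replicate 2) and 0.77 to 2.12 (without vehicle replicate 5 and 4). In mRNA-seq the value was 0.04 (0.40, 1.00), where 0.0193% were. Between 1.5 and 0.3 μM at 10 min it was 2.22 (0.61, 0.62). With the replicate number as a block, although pairing by number was unclear at 10 min, it was 2.20 with an adjusted p of 0.0195 from edgeR (0.649% of 7247 transcripts were called higher). LRP8 fell below the filter with 0.3 μM and vehicle, so it entered this fit too through the 1.5 μM reads that are tested. With neither filter nor block the log2 fold change was 2.22 with an adjusted p of 0.325 from edgeR, which did not pass. Between the doses at 60 min it was 1.22 (standard error 0.55), or 1.38 with the block (adjusted p = 0.62 from edgeR), and neither passed.

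The center of density, the mean position of a footprint as a fraction of the CDS, lay further upstream in LRP8 with 1.5 μM at 10 min. It was 0.300, 0.404 and 0.451 in the treated libraries and 0.500, 0.554 and 0.532 in the vehicle libraries, which did not overlap (means 0.385 ± 0.077 and 0.528 ± 0.027, exact permutation p = 0.1), as for 23.1% of transcripts in this direction. After 60 min it overlapped (0.441 ± 0.031 and 0.470 ± 0.069, exact permutation p = 0.5). In the second study it was 0.467 and 0.468 with 1.5 μM and 0.535 and 0.574 with vehicle, without overlap, as for 20.6% of transcripts. At 0.3 μM for 10 min it was 0.471 ± 0.031, also below every vehicle library, as for 3.23% of transcripts.

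Cumulative fractional reads, the percentage of reads at or before each codon, describe the same shift without a fixed window. Dmax is the largest excess of the treated over the vehicle curve with replicates pooled, and its Z-score sets it against 300 transcripts of similar read number. LRP8 had a Dmax of 0.253 at codon 302 after 10 min of 1.5 μM (Z-score 2.69, with 3.48% of 11422 transcripts at a Z-score of at least 2). After 60 min it was 0.0905 at codon 69 (Z-score 1.13, with 2.67% of transcripts at 2 or above). For the second study it was 0.166 at codon 83 (Z-score 2.02, with 2.38% of transcripts at 2 or above). That Z-score rested on single libraries and was 1.98 and 1.29 without 1.5 μM replicate 4 or 5 and 1.46 without vehicle replicate 5.

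At 0.3 μM the LRP8 Dmax was 0.157 at codon 408 after 10 min (Z-score 2.24, with 3.56% of transcripts at 2 or above) but 0.999 and 1.94 in Z-score without 0.3 μM replicate 2 or vehicle replicate 2. After 60 min of 0.3 μM the Z-score was 0.60, and in mRNA-seq of 1.5 μM it was 0.53, with 2.37% of transcripts at 2 or above in each. The Z-scores of LRP1 and LRP10 were below 2 in all of these comparisons, with highest values of 1.49 for LRP1 (1.5 μM, 60 min, Dmax 0.0635 at codon 1937, but 0.88 without 1.5 μM replicate 3 and 0.46 with a Dmax of 0.0229 without vehicle replicate 2) and 1.84 for LRP10 (0.3 μM, 60 min, Dmax 0.0707 at codon 317).

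**Figure D4:**
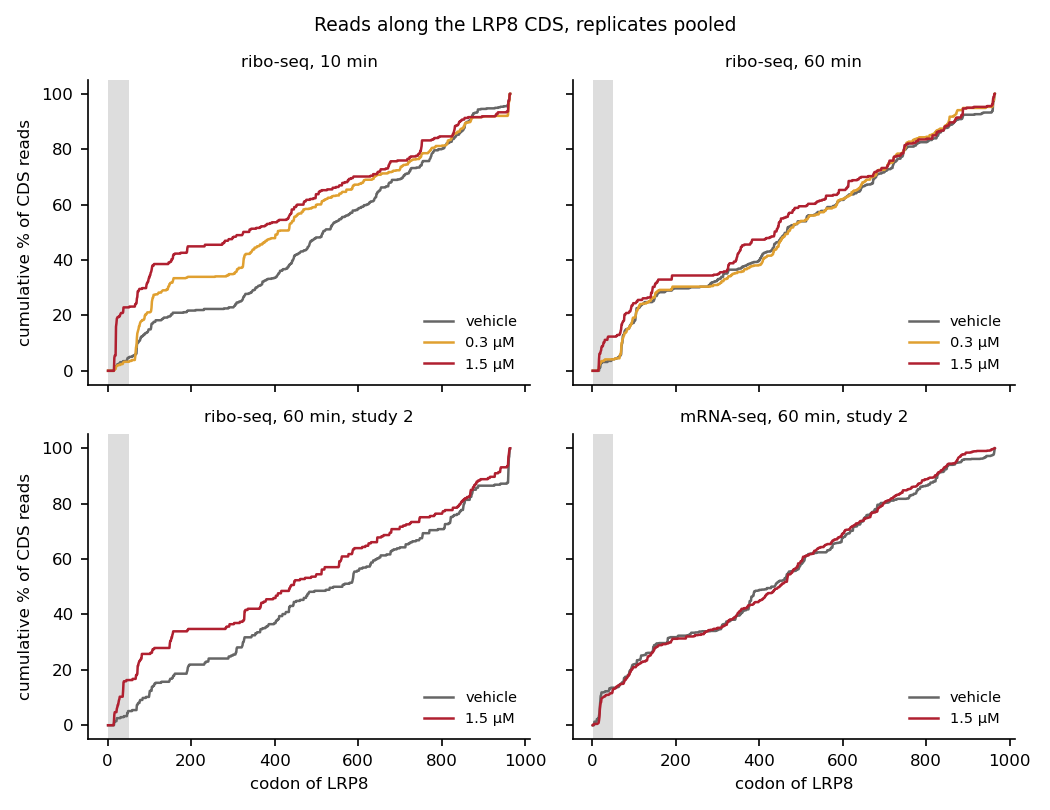
Cumulative percentage of reads along the 964 codons of LRP8 with replicates pooled, for 10 min, 60 min and the second study in ribo-seq and for mRNA-seq, with the first 50 codons shaded. The 1.5 μM curve departs from vehicle within the shaded codons in the ribo-seq panels and follows it in mRNA-seq. The largest Dmax is that at 10 min (0.253), reached at codon 302, beyond the shaded codons.

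Over the whole CDS, 0 of the 3 receptors passed the false discovery rate (FDR) of 0.1 in any of the 10 comparisons by edgeR without a block for the replicate number. With that block LRP8 passed at 60 min of 1.5 μM and LRP1 at 10 min, as given for each below. Of these 30 tests, 5 had an unadjusted p under 0.05, and DESeq2 called none. Over all transcripts the share called was 0.851% of 11045 for 1.5 μM against vehicle at 10 min, 0.0726% of 11021 at 60 min and 0.115% of 11263 in the second study, with 1953, 242 and 335 transcripts at an unadjusted p under 0.05. No transcript was called by edgeR at 0.3 μM against vehicle at 10 min or 60 min, between the doses at either time, in mRNA-seq or in the difference between times, where 104, 97, 1273, 99, 228 and 506 had an unadjusted p under 0.05 and DESeq2 called 0, 0, 96, 0, 1 and 1.

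LRP8 had fewer footprints over its whole CDS in the treated libraries at 60 min, where the authors had already named it as a gene with lower translation. The levels were 12.5, 19.4 and 14.1 CPM with vehicle, 9.59, 14.5 and 11.7 with 0.3 μM and 6.99, 11.2 and 9.96 with 1.5 μM. The 1.5 μM libraries were all below the vehicle libraries, as for 3.33% of transcripts, while the 0.3 μM libraries overlapped with both groups. Libraries with the same replicate number were taken as paired at this time, although the labels do not state a pairing. Within each of the 3 numbers the level was lower with 0.3 μM than with vehicle and lower again with 1.5 μM. How many of all transcripts had this order was not computed, and both doses share the vehicle libraries, so it is descriptive only. The log2 fold change of 1.5 μM against vehicle was −0.75 (standard error 0.23, 95% interval −1.26 to −0.25, unadjusted p = 0.00672 and adjusted p = 1.00 from edgeR). Blocked by replicate number, a pairing that was assumed and not established, it was −0.70 with an adjusted p of 0.0725 from edgeR (0.345% of transcripts called lower). Against vehicle, 0.3 μM gave −0.37 (0.21, adjusted p = 1.00 from edgeR), with −0.15 without vehicle replicate 2 and −0.24 without 0.3 μM replicate 1. With the block it was −0.36 (unadjusted p = 0.0167, adjusted p = 1.00 from edgeR), and 1.5 against 0.3 μM was also −0.36 (unadjusted p = 0.0145, adjusted p = 0.708).

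In the second study the LRP8 levels were 12.5 and 11.6 with vehicle and 7.35 and 10.6 with 1.5 μM, which again did not overlap, as for 15.2% of transcripts. The log2 fold change was −0.42 (standard error 0.20, 95% interval −0.86 to 0.01, adjusted p = 1.00 from edgeR), and it was −0.19 and −0.72 without 1.5 μM replicate 4 or 5. The mRNA levels overlapped, at 20.2 and 26.2 with vehicle and 23.8 and 25.4 with 1.5 μM, with a log2 fold change of 0.08 (0.17, adjusted p = 1.00), which was −0.091 and 0.29 without vehicle replicate 4 or 5. The TE of LRP8 was 0.618 and 0.441 with vehicle and 0.309 and 0.417 with 1.5 μM, a log2 change of −0.51 (0.28, 95% interval −1.11 to 0.10, adjusted p = 1.00, and −0.27 and −0.81 without ribo-seq of 1.5 μM replicate 4 or 5, −0.33 without mRNA-seq of vehicle replicate 4), where 0.0339% of 11799 transcripts were called. With the sample as a block, chosen after the data had been seen, the TE change was −0.54 (standard error 0.25, 95% interval −1.08 to −0.002). Its unadjusted p was 0.0493 and its adjusted p 0.97 from edgeR. LRP8 footprints and mRNA in bulk samples are averages over cells, so that fewer cells with LRP8 footprints and fewer footprints per cell cannot be told apart. Receptor protein is not measured by these libraries.

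At 10 min the whole-CDS level of LRP8 was nearly the same with 1.5 μM (12.6, 13.7 and 13.0 CPM) and vehicle (12.6, 12.5 and 14.02), and the libraries overlapped. The log2 fold change was 0.01 (standard error 0.15, 95% interval −0.31 to 0.33), and between −0.023 (without 1.5 μM replicate 2) and 0.061 (without vehicle replicate 3) when 1 library was left out. For reads after codon 50 it was −0.28 (adjusted p = 0.421 from edgeR), against −0.89 after 60 min (adjusted p = 0.589). The 60-min effect minus the 10-min effect was −0.78 on the log2 scale (0.28, unadjusted p = 0.0125, adjusted p = 0.856 from edgeR).

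**Figure D5:**
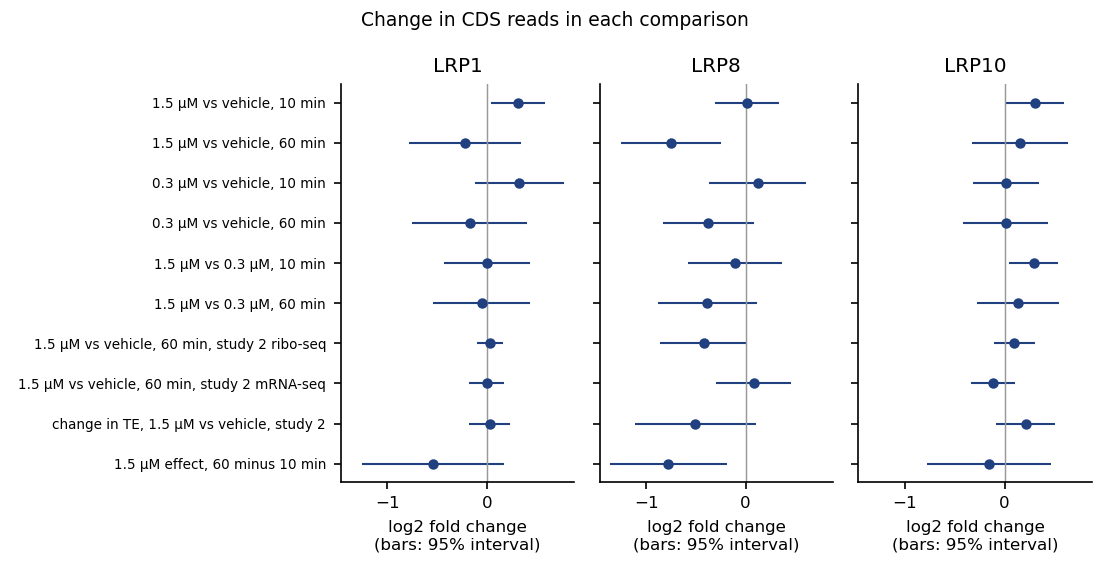
Log2 fold change of CDS reads for each receptor (points) with 95% intervals (bars) in the 10 comparisons on the vertical axis, from edgeR. The lowest value against vehicle is that of LRP8 after 60 min of 1.5 μM (−0.75), and no point passed the FDR in these fits, which have no replicate block.

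LRP1 varied more between replicates than between treatments at 60 min. Its levels were 300.04, 637 and 322 CPM with vehicle, 284, 494 and 341 with 0.3 μM and 281, 459 and 345 with 1.5 μM. Replicate 2 was the highest in each of these groups and in 5 of the 6 groups of the first study, as it was in 5 of 6 for LRP8. The log2 fold change of 1.5 μM against vehicle was −0.22 (standard error 0.26, 95% interval −0.78 to 0.34), and without vehicle replicate 2 it was 0.22. In the second study the levels lay close together, at 342 and 345 with vehicle and 354 and 350.4 with 1.5 μM, with a log2 fold change of 0.03 (0.06, 95% interval −0.10 to 0.17). The mRNA value was 0.0018 (0.079) and the change in TE 0.03 (0.09).

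At 10 min LRP1 was 356, 307 and 296 CPM with vehicle and 420.1, 449 and 329 with 1.5 μM, which overlapped. The log2 fold change was 0.32 (standard error 0.13, unadjusted p = 0.0252, adjusted p = 0.228 from edgeR). Blocking by replicate number, although pairing of these libraries by number was unclear, gave 0.31 with an adjusted p of 0.0795 from edgeR, where 5.93% of transcripts were called higher. At 0.3 μM the levels were 325, 563 and 309 (log2 fold change 0.32, standard error 0.20, adjusted p = 1.00), and without replicate 2 of 0.3 μM the log2 fold change was −0.0090.

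LRP10 did not pass in any comparison, with or without the block. At 10 min it was 35.3, 31.5 and 45.7 CPM with vehicle and 47.0, 47.5 and 43.9 with 1.5 μM, which overlapped, and the log2 fold change was 0.30 (standard error 0.14, unadjusted p = 0.0452, adjusted p = 0.273 from edgeR). Without vehicle replicate 3 it was 0.46 with an adjusted p of 0.0396, when 1656 transcripts were called in place of 94. After 60 min the log2 fold change was 0.15 (0.22, 95% interval −0.33 to 0.64), with −0.059 without vehicle replicate 1 and 0.34 without 1.5 μM replicate 1. It was in the second study 0.10 (0.09), in mRNA −0.12 (0.10) and in TE 0.21 (0.13). The mRNA value was −0.20 and −0.015 without vehicle replicate 4 or 5, and the TE value was 0.11 without mRNA-seq of vehicle replicate 5.

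The center of density of LRP10 after 60 min was 0.523, 0.532 and 0.545 with vehicle, 0.502, 0.503 and 0.506 with 1.5 μM and 0.491, 0.520 and 0.491 with 0.3 μM. Neither dose overlapped with vehicle (exact permutation p = 0.1 for each), as for 8.59% and 4.54% of transcripts. The doses share these 3 vehicle libraries. The libraries of the second study overlapped, at 0.474 and 0.488 with 1.5 μM and 0.491 and 0.486 with vehicle.

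Within vehicle cells at 60 min the codon with the most footprints was codon 3165 in LRP1, codon 70 in LRP8 and codon 409 in LRP10. The 21 codons around each are shown, with that codon in capitals, because footprints were counted most often there in the 3 vehicle libraries of the first study at 60 min, from which the codons were chosen.
LRP1 codon 3165 (exons 59 to 60, plus strand, chr12:57198336-57198519): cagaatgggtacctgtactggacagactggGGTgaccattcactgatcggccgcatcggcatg
LRP8 codon 70 (exon 2, minus strand, chr1:53326877-53326939): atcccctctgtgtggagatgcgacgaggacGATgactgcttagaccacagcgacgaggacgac
LRP10 codon 409 (exon 5, plus strand, chr14:22876143-22876205): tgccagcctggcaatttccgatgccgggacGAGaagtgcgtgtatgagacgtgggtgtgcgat
Codon 3165 held 0.617 ± 0.258% of LRP1 footprints in vehicle cells at 60 min (SD, n = 3), which is 28.04 times the average codon, and 0.599 ± 0.226% with 1.5 μM. It held in the second study 0.756 ± 0.229% and 0.778 ± 0.205% (n = 2), while the 4 mRNA-seq libraries had 1 read on it. Codon 70 held 4.05 ± 3.04% of LRP8 footprints with vehicle (15 reads in 3 libraries) and 2.08 ± 1.72% with 1.5 μM (6 reads), which differ by less than the spread. The second LRP8 codon in this order, codon 73, had a mean of 0.513 CPM without TMM factors in these vehicle libraries, from which it was chosen. It had 0.048 with 1.5 μM at 60 min, but also only 0.019 with vehicle at 10 min and 0.036 with vehicle in the second study. The third LRP8 codon, codon 960, lies 4 codons before the stop and held 2.06 ± 1.23% and 2.15 ± 0.48%. Codon 409 held 1.69 ± 0.99% of LRP10 footprints with vehicle and 0.89 ± 0.20% with 1.5 μM, and in the second study it had no footprint in the vehicle libraries.

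Of 50 other genes of the family and its pathway, 39 were among the transcripts and tested. They were 5 other receptors, the chaperone MESD, 11 adaptors and sorting proteins, 10 genes of turnover and cleavage, and 12 ligands. With 1.5 μM against vehicle 1 of 39 passed at each time and in the second study by edgeR, and none did at 0.3 μM. Their median log2 fold change was 0.06 at 10 min and −0.02 at 60 min, beside 0.0055 and −0.0022 over all transcripts tested.

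The gene that passed was MDK, a heparin-binding growth factor that LRP1 binds, and it was lower each time (0.389%, 0.0726% and 0.107% of transcripts were called lower). The authors had already reported MDK as a gene on which the compound stalls ribosomes, so this is not a new finding. They counted only reads downstream of the stall, whereas the values here cover the whole CDS. Its levels are given as those of a known sensitive gene, and a link to the receptors was not tested. Its levels were 143, 216 and 205 CPM with vehicle and 95.7, 107 and 86.9 with 1.5 μM at 10 min (log2 fold change −0.96, standard error 0.15, adjusted p = 0.016 from edgeR). After 60 min they were 161, 166 and 187 against 60.6, 79.5 and 92.5 (−1.15, 0.16, adjusted p = 0.0171), and in the second study 262 and 243 against 155 and 145 (−0.75, 0.07, adjusted p = 0.0012). The treated libraries were below the vehicle libraries without overlap in each comparison, as for 11%, 3.33% and 15.2% of transcripts, while MDK mRNA was 305 and 305 with vehicle and 309 and 298 with 1.5 μM.

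Without a block the other receptors did not pass in any comparison. At 10 min of 1.5 μM their log2 fold changes were 0.08 for LRP3, 0.34 for LRP4 and 0.31 for LRP5 and −0.08 for LRP6, the last 2 being co-receptors of Wnt signaling, and 0.27 for LRP11. After 60 min they lay between −0.09 and 0.09. MESD, the chaperone that folds the Wnt co-receptors, gave −0.10 and 0.03. With the replicate number as a block, APH1A, a subunit of the γ-secretase that cleaves these receptors, rose by 0.48 on the log2 scale after 60 min (adjusted p = 0.0502 from edgeR, with 0.118% of transcripts called higher), and no other of the 39 genes except MDK passed in that fit. At 10 min, where pairing by number was unclear, the same block gave calls for LRP5 (0.31, adjusted p = 0.0918), FURIN (0.31, 0.0969) and HSPG2 (0.34, 0.0554), where 5.93% of transcripts were called higher, and for MDK. With the 2 pairs of the second study it gave calls for CLU (−0.15, adjusted p = 0.0119 from edgeR, where 0.701% were called lower) and MDK. FURIN cleaves LRP1, and HSPG2 and CLU are a heparan sulfate proteoglycan and an extracellular chaperone on the list of ligands.

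Across the 18 ribo-seq libraries of the first study the levels of LRP1 and LRP8 had a Pearson correlation of 0.70, LRP1 and LRP10 of 0.39, and LRP8 and LRP10 of 0.24, on a log2 scale of CPM. These libraries share depth, handling and replicate numbers, and the values are descriptive. Among 9689 transcripts that averaged 50 reads or more, the highest correlations with LRP1 were those of PLIN2 (0.90), MARS1 (0.90) and TRAPPC12 (0.90), and with LRP8 those of CCDC12 (0.84), NUCB1 (0.81) and TRIM2 (0.80). With LRP10 they were ENSG00000251357 and a transcript without a symbol (0.98 each), which had identical counts to each other in every library, and PYCR1 (0.93).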

How the data were processed

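The deposited files of the authors hold raw counts of reads per codon of 12325 transcripts, without normalization, for 22 ribo-seq and 4 mRNA-seq libraries. The tools named in the submitters' processing notes are Bowtie 1.1.2, kallisto 0.42.5 and DESeq, with GRCh38. The authors aligned reads to 1 isoform per expressed gene, kept reads whose best alignments fell on at most 5 sites, and by their scripts counted each of these alignments once at its inferred P-site, so that a read with several best sites adds to each.

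The members and gene lists were chosen with earlier results of these data known. The authors had named LRP8 among the genes lower at 1 h without a Dmax Z-score above 2. The 60-min values of LRP8 in the first study are therefore not an independent finding. Of the 12325 transcripts, 11270 were named by GENCODE. Reads were summed over each CDS and tested with edgeR 4.0.16 in R 4.3.3 (filterByExpr, TMM factors, quasi-likelihood test, only the compared groups, Benjamini-Hochberg over all transcripts, FDR 0.1). For TE the assay-by-treatment interaction was tested. Members were compared in every comparison. Other receptors, chaperones and list genes that passed were named, as were the 3 transcripts correlating best with each member (log2 with a pseudocount of 1). Of the 3 codons with the most vehicle footprints at 60 min in each member and of the Dmax codons, only some are named. Dmax used replicates pooled, at least 10 reads in each group, bins of 300 and the root mean square of the bin. Shares and the center of density were computed per library and compared with two-sided exact permutation tests in Python 3.11.15 (scipy 1.17.1). RPKM used the TMM-normalized library sizes unless stated. Alternatives were DESeq2 1.42.0, its size factors, no filter, FDR 0.05, other codons counted, all 18 libraries in 1 fit, the replicate number as a block, other Dmax scalings and leaving out each library. In the second study, leaving 1 library out leaves a lone library that is assumed to vary like the other group. First-50-codon reads, the sample as a block in TE and the share without codons 17 to 20 were chosen after seeing the data. The steps were tested on simulated data.

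Replicate numbers were checked by correlating, between libraries that share a number, the distance of each transcript from its group mean. For 1.5 μM and vehicle the correlations were 0.54, 0.41 and 0.54 at 60 min and 0.22, 0.24 and 0.06 at 10 min. For 0.3 μM and vehicle they were 0.21, 0.16 and 0.55 at 10 min and 0.44, 0.44 and 0.57 at 60 min. Between the doses they were 0.40, 0.33 and 0.22 at 10 min and 0.80, 0.45 and 0.64 at 60 min. No cutoff was set, and libraries of different numbers were not correlated. The libraries at 60 min were taken as paired, which is an assumption, while pairing at 10 min is unclear in each comparison. The second study has 2 pairs only (0.30 in ribo-seq and 0.09 in mRNA-seq). At the lowest LRP8 depth, 74 footprints, a share of 13.5% had a 95% interval of 7.51% to 23.1%.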

Additional observations from a re-analysis of the deposited data

Results flagged for a closer look

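The center of density of LRP1 was above the vehicle mean in all 3 libraries of 1.5 μM at 10 min and below it in all 3 at 60 min. At 10 min it was 0.483, 0.474 and 0.478 with 1.5 μM and 0.477, 0.474 and 0.454 with vehicle, a mean difference of 0.0102 (exact permutation p = 0.2). At 60 min it was 0.471, 0.487 and 0.459 with 1.5 μM and 0.478, 0.518 and 0.477 with vehicle, a mean difference of −0.0187 (exact permutation p = 0.4). The libraries of the 2 treatments overlapped at both times, and the difference between the times was not tested. At 60 min, where libraries with the same replicate number were taken as paired, the value was lower with 1.5 μM within each number. How many of all transcripts did the same was not computed. Leaving out 1 library at a time gave 0.00311 (without vehicle replicate 3) to 0.0146 at 10 min and −0.0262 to −0.00507 (without vehicle replicate 2) at 60 min. For the second study the means were 0.492 with 1.5 μM and 0.491 with vehicle, a difference of 0.00106 (exact permutation p = 1.00), and the libraries overlapped.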

How the results depend on the processing

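With the replicate number as a block, the number of the 3 receptors past the FDR was 1 in place of 0 at 60 min of 1.5 μM (LRP8, −0.70 on the log2 scale, where pairing was assumed) and 1 in place of 0 at 10 min (LRP1, 0.31, adjusted p = 0.0795 from edgeR, where pairing was unclear). The block gave LRP8 first-50-codon reads between 1.5 and 0.3 μM at 10 min past the FDR (2.20), where pairing was also unclear and LRP8 entered through the 1.5 μM reads. The block changed no other call on the 3 receptors. Among the other receptors, LRP5 passed with the block at 10 min (0.31, adjusted p = 0.0918 from edgeR). For 1.5 μM against vehicle at 10 min, 60 min and in the second study, between the doses at 10 and 60 min, and in TE, edgeR called 94, 8, 13, 0, 0 and 4 transcripts, against 1196, 51, 129, 390, 30 and 13 with the block. DESeq2 called 516, 16 and 17 against vehicle, 96 and 0 between doses, and 11 in TE. Counting codons after 50 gave 195, 19 and 29 against vehicle, 5 and 4 between doses, and 15 in TE. Without the last 15 codons there were 245 at 10 min and 2 in TE, at an FDR of 0.05 there were 29 at 10 min and 2 in TE, and with all 18 libraries in 1 fit 30 at 10 min and 14 at 60 min. The causes were not tested.

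The LRP8 value at 10 min was −0.28 for codons after 50 and −0.034 without the last 15 codons, against 0.01. LRP1 between doses at 10 min was 0.0083 with no filter, 0.026 for codons after 50, 0.038 with the block and 0.00019 with all 18 libraries, against −0.0014. The LRP8 Dmax Z-score in the second study was 1.91 with bins of 150. The difference in share was 0.0015 percentage points for LRP1 at 60 min without the first codon and the last 15, and −0.37 points for LRP8 at 0.3 μM, 10 min, without codons 17 to 20.

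Leaving out 1 library at a time gave the following lowest and highest values. The number of receptors past the FDR at 10 min of 1.5 μM was 0 to 1, while 9 to 1656 transcripts passed there, 0 to 8 at 60 min, 10 to 129 in the second study and 1 to 128 in TE. For LRP1 the log2 fold change was −0.42 to 0.22 for 1.5 μM at 60 min, −0.0090 to 0.48 and −0.43 to 0.27 for 0.3 μM at 10 and 60 min, −0.15 to 0.32 and −0.25 to 0.20 between doses, and −0.020 to 0.025 in mRNA. For LRP10 it was 0.19 to 0.46 and −0.059 to 0.34 for 1.5 μM, −0.10 to 0.17 and −0.20 to 0.16 for 0.3 μM, and −0.36 to 0.032 for the difference between times. For LRP8 it was −0.023 to 0.061 for 1.5 μM and −0.22 to 0.32 for 0.3 μM at 10 min, −0.30 to 0.22 between doses at 10 min and −0.091 to 0.29 in mRNA. LRP8 first-50-codon reads gave 1.57 to 2.43 at 10 min and −0.38 to 0.71 in mRNA, and the Dmax Z-score gave 0.999 to 2.64 at 0.3 μM, 10 min, and 1.29 to 2.16 in the second study. Without a turn in direction, LRP8 between doses at 60 min gave −0.51 to −0.19 and LRP1 in TE 0.0084 to 0.042. LRP10 between doses at 60 min likewise gave 0.019 to 0.32. With 1.5 μM the share difference of LRP1 at 10 min was −0.40 to −0.050 percentage points. That of LRP10 in the second study was 0.57 to 2.91 points. The difference in share (percentage points) was −0.16 to 0.18 and −0.19 to 0.13 for LRP1 at 60 min and in the second study, −2.60 to 0.65 and −0.63 to 0.91 for LRP10 at 10 and 60 min, and −0.67 to 2.85 and −0.43 to 1.61 for LRP8 at 0.3 μM. The difference in center of density was −0.00317 to 0.00529 for LRP1 in the second study, −0.00841 to 0.0154 for LRP10 at 10 min, −0.0667 to −0.000282 for LRP8 at 60 min (lowest size without vehicle replicate 3) and −0.0255 to 0.0409 for LRP8 at 0.3 μM, 60 min. The higher LRP8 share with 1.5 μM kept its direction in every alternative run, and LRP8 depth (74 to 412 footprints) limits its precision.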
